A study of Rattus norvegicus with 8 samples.

Results

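In all, 10 genes of the cyclic AMP pathway were followed on the array: the protein kinase A (PKA) catalytic subunit genes Prkaca and Prkacb, its regulatory subunit genes Prkar1a, Prkar2a and Prkar2b, the adenylyl cyclase genes Adcy3 and Adcy6, and the downstream genes Sik1, Creb1 and Crem. They were taken by gene symbol from the platform's annotation, which gave these 10 genes 21 probe sets of their own, out of 10411 genes with such a probe set among 15866 probe sets that are not controls. The tissue was the adrenal gland of neonatal rats on postnatal day 7, with the capsule removed. There were 4 hypoxic samples, from pups housed with their dams in 12% O2 since birth, and 4 normoxic samples, from pups of dams in room air with free access to feed. Each sample was a pool of 24 glands read on 1 array with 1 colour, so a value is an average over pups. No source used here says how litters and sexes were spread over the pools, and a p-value below measures only the spread between these pools, part of which may be technical.

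Cyclic AMP is the main second messenger of the adrenal gland. In the cortex ACTH binds its receptor, the stimulatory G protein turns on adenylyl cyclase, and the cyclic AMP made there binds the regulatory subunits of PKA, which let go of the catalytic subunits. The free catalytic subunits phosphorylate proteins that supply cholesterol for steroid synthesis and the transcription factor CREB, and in chromaffin cells of the medulla PKA also acts on the enzymes that make catecholamines. Sik1 and Crem belong to the feedback of this pathway, since both are genes that cyclic AMP can switch on and both encode proteins that can damp CREB activity.

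The pools carried the transcripts that define an adrenal gland. The 8 tested cortex markers, among them Star and Cyp11a1, summed to intensities from 89169.6 to 131670.7 in hypoxic pools and from 89738.8 to 122991.6 in normoxic pools. The 12 tested chromaffin markers summed to between 44703.0 and 60894.1 in hypoxic pools and between 39030.4 and 50998.4 in normoxic pools. These sums overlapped. All 12 were higher in hypoxic pools, with log2 differences from 0.0031 to 0.98 around a median of 0.14. In limma 5 of the 12 had an unadjusted p below 0.05, where 8.64% of all tested probe sets did. After adjustment 1 of them passed, that of Slc18a2 (limma, adjusted p = 0.0318). Of the 8 cortex markers 6 were higher and 2 lower, around a median of 0.02. No marker of either list was at 0 in any pool. The 7 leukocyte markers summed to 2010.3 to 2429.4 in hypoxic and 2435.5 to 2760.4 in normoxic pools, without overlap. Of these 7, 3 were higher and 4 lower in hypoxic pools, and the 3 with an unadjusted p below 0.05 in limma were the lower C1qa, C1qb and C1qc. The 5 tested adipose markers, of tissue that can be carried along at dissection, summed to 738.1 to 2347.7 in hypoxic and 1470.7 to 5394.7 in normoxic pools. Sums of the endothelial, Schwann, glomerulosa and capsule, erythroid, and kidney and liver markers overlapped between groups. The 3 tested erythroid markers were all higher in hypoxic pools, 2 with an unadjusted p below 0.05 in limma and 0 past adjustment. The kidney and liver sum was highest in hypoxic pool 1, at 2447.7. Probe set intensities are in arbitrary units, and the array medians lay between 228.6 and 249.2. The term background here means 46.7, the 95th percentile of 27 probe sets for bacterial genes. Intensities of different probe sets depend on their own probes, so levels are compared only between pools and not between genes.

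None of the 10 genes passed the test between hypoxic and normoxic glands. The fit was limma's moderated test on log2(intensity + 16), adjusted over all 11106 probe sets above a brightness filter. Of the 17 tested probe sets of these genes, 0 had an adjusted p below 0.05, where 0.180% of all tested probe sets did, 0.117% higher and 0.0630% lower in hypoxic pools. In limma, 1 of the 17 had an unadjusted p below 0.05, where 8.64% of all tested probe sets did. The log2 differences of the 17, hypoxic minus normoxic, ran from -0.46 to 0.45 with a median of -0.05, and the median over all tested probe sets was -0.02. They were above 0 in 7 of the 17, where 45.2% of all tested probe sets were. In 2 of the 17, at Prkacb and Prkar2b, the values of the 4 hypoxic pools all lay above those of the 4 normoxic pools, where 5.39% of all tested probe sets had no overlap in either direction, 2.76% with hypoxic pools higher and 2.64% with hypoxic pools lower. The other 4 probe sets lay below the filter, which stood at a signal of 95.2, and get no test.

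**Figure D1:**
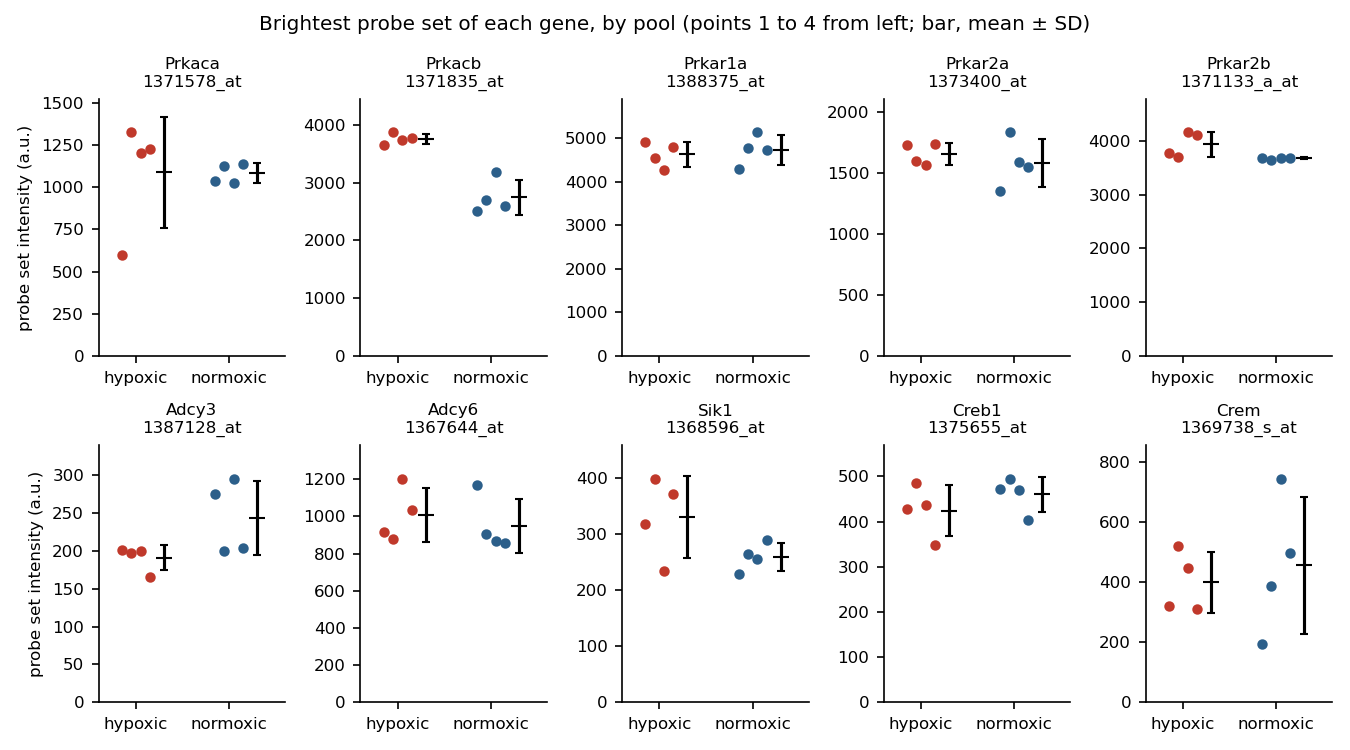
Intensity (arbitrary units, axis from 0) of the brightest probe set of each of the 10 genes in the 4 hypoxic pools (red) and the 4 normoxic pools (blue), with the mean and SD beside the points. The hypoxic points of Prkacb lie between 3654.6 and 3870.9, all above the normoxic ones, while hypoxic pool 1 of Prkaca lies apart at 599.9.

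The catalytic subunits carry the kinase activity of PKA. The gene with the lowest p among the 10 was Prkacb, which encodes the beta form of the catalytic subunit, with forms that are well known from brain. Its bright probe set, 1371835_at, measured 3654.6, 3870.9, 3743.4 and 3766.3 in hypoxic pools 1 to 4, against 2510.2, 2697.5, 3189.3 and 2601.7 in normoxic pools 1 to 4. All hypoxic pools thus lay above all normoxic pools, and the hypoxic pools lay closer together. The means were 3759 ± 88.9 in hypoxic and 2750 ± 303 in normoxic pools (SD, n = 4 pools each), which is 0.45 higher in hypoxic pools on the log2 scale, with a standard error of 0.09 (95% interval 0.25 to 0.66). This is a fold of 1.37, and it ranked 36th by p of the 11106 tested probe sets. It did not pass the adjustment over the table (limma, adjusted p = 0.122), with adjusted p from 0.0772 to 0.396 over 17 alternative settings. The 12 chromaffin markers were all higher in the same hypoxic pools, with log2 differences from 0.0031 to 0.98 around a median of 0.14. Their sums overlapped and 1 of 12 was past the adjusted threshold, as given above. Their part in this difference was not tested, and in pooled tissue more cells of a type and more RNA per cell cannot be told apart.

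Prkacb has a second, dim probe set, 1370746_at, whose difference had the other sign and a wide interval. It measured 53.3, 134.9, 271.8 and 111.6 in hypoxic pools 1 to 4, against 66.3, 83.5, 492.2 and 269.5 in normoxic pools 1 to 4. The groups overlapped widely, and pool 3 was the highest of each group. The log2 difference was -0.41 (95% interval -1.61 to 0.79; limma, adjusted p = 0.881). That interval includes the 0.45 of the bright probe set, so it does not settle whether the dim one shares its difference. The differences at the bright and the dim probe set were 0.86 log2 apart, which was within the spread between pools (exact permutation test, two-sided, p = 0.286; adjusted over 15 such pairs of probe sets, 0.75). This value ran from 0.45 without normoxic pool 3 to 1.21 without normoxic pool 1. No source used here says which transcript forms the probe sets match.

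Prkaca, the gene of the alpha catalytic subunit, is the form mutated in human cortisol-producing adenomas. Its only probe set, 1371578_at, measured 599.9, 1324.5, 1204.2 and 1225.0 in hypoxic pools 1 to 4, against 1036.4, 1127.2, 1025.8 and 1139.2 in normoxic pools 1 to 4. Hypoxic pool 1 lay far below the others, and the remaining hypoxic pools lay above every normoxic pool. The log2 difference was -0.05 (95% interval -0.50 to 0.39; limma, adjusted p = 0.969). Without hypoxic pool 1 it was 0.21 (limma, adjusted p = 0.415). A measure of RNA integrity, the signal of 5' beta-actin probes over that of 3' ones, was also lowest in that pool, at 0.249, against 0.491 to 0.713 in the other hypoxic pools and 0.413 to 0.744 in the normoxic pools. The same ratio for Gapdh was 0.6182 in that pool, within the range of the other hypoxic pools, 0.5562 to 0.6585. In the normoxic pools it ran from 0.5866 to 0.7314. The part of RNA integrity in the low Prkaca value was not tested.

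The regulatory subunits bind cyclic AMP and hold the catalytic subunits inactive. Prkar1a encodes the type I alpha subunit, whose loss in people causes Carney complex with nodular adrenal disease. Its 3 probe sets were all bright. The brightest, 1388375_at, measured 4910.0, 4538.1, 4275.6 and 4790.9 in hypoxic pools, against 4282.6, 4785.8, 5133.2 and 4728.1 in normoxic pools. The groups overlapped almost fully, and the log2 difference was -0.03 (95% interval -0.23 to 0.17; limma, adjusted p = 0.958). The second, 1373951_at, averaged 3069 ± 81.9 in hypoxic and 3431 ± 384 in normoxic pools (SD, n = 4 pools each), a log2 difference of -0.15. The third, 1386905_at, averaged 2890 ± 326 in hypoxic and 2710 ± 521 in normoxic pools, a log2 difference of 0.11. The 3 probe sets therefore gave small differences of both signs, and no pair of them differed beyond the spread between pools (exact permutation test, lowest p = 0.114).

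Prkar2a and Prkar2b encode the type II regulatory subunits, which bind A-kinase anchoring proteins tightly. Prkar2b, at its single probe set 1371133_a_at, measured 3777.9, 3710.9, 4160.3 and 4109.1 in hypoxic pools, against 3688.3, 3654.3, 3689.3 and 3680.8 in normoxic pools. The normoxic pools were almost equal, and every hypoxic pool lay above them, 1 of them by little. The means were 3940 ± 228 in hypoxic and 3678 ± 16.4 in normoxic pools (SD, n = 4 pools each). The log2 difference of 0.10 (95% interval -0.08 to 0.27) did not pass (limma, adjusted p = 0.799).

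Prkar2a, at its brightest probe set 1373400_at, measured 1728.5, 1599.9, 1563.5 and 1736.5 in hypoxic pools, against 1355.4, 1834.4, 1588.4 and 1550.7 in normoxic pools. Here the groups overlapped, and the log2 difference was 0.07 (95% interval -0.15 to 0.30; limma, adjusted p = 0.890). Its dimmer probe sets had log2 differences of -0.16 at 1371059_at and 0.01 at 1375620_at, with wider intervals. At 1371059_at the lowest values were 130.6 in hypoxic pool 1 and 99.7 in normoxic pool 1, and the highest were 298.7 in hypoxic pool 3 and 354.5 in normoxic pool 3.

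**Figure D2:**
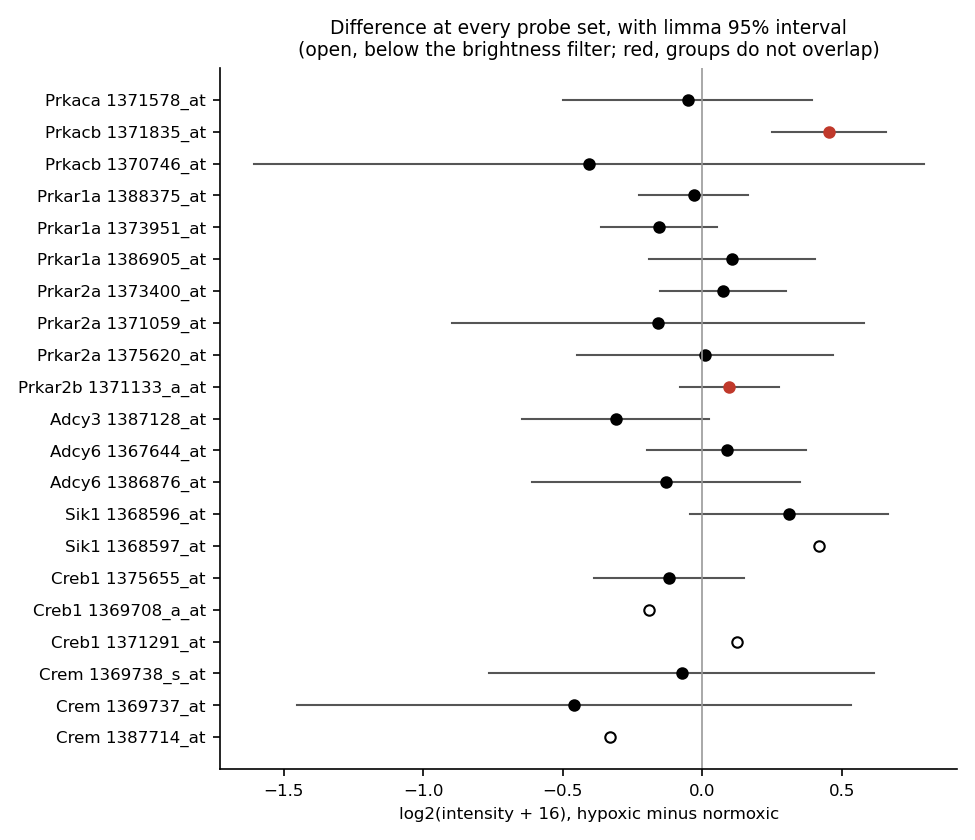
Log2 difference, hypoxic minus normoxic, of log2(intensity + 16) at each of the 21 probe sets, with limma's 95% interval for the 17 that were tested; open circles are the 4 below the brightness filter. The interval of the bright Prkacb probe set, 0.25 to 0.66, lies above 0, and the other 16 intervals include 0.

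Because PKA is made of both kinds of subunit, Prkacb was also set against the other subunit genes within each pool. The measure was the log2 value of its bright probe set minus that of the brightest probe set of the other gene, so that only its difference between groups has a meaning. Against Prkar1a the difference was -0.42, -0.23, -0.19 and -0.35 in hypoxic pools, against -0.77, -0.82, -0.68 and -0.86 in normoxic pools. Every hypoxic pool lay above the normoxic range. Prkacb differed from Prkar1a in its hypoxic-normoxic difference by 0.49 log2, from Prkar2a by 0.38 and from Prkar2b by 0.36, each larger than the spread between pools (exact permutation test, two-sided, p = 0.0286 for each; adjusted over the 4 subunits, 0.0381). This p is the smallest that 4 pools against 4 can give, and Prkacb entered these comparisons because its own difference was known, so they add no independent evidence. Against Prkaca the corresponding difference was 0.51, within the spread between pools (exact permutation test, p = 0.0857). Without hypoxic pool 1 it was 0.26, and with 3 pools against 4 no p below 0.0571 can be had.

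**Figure D3:**
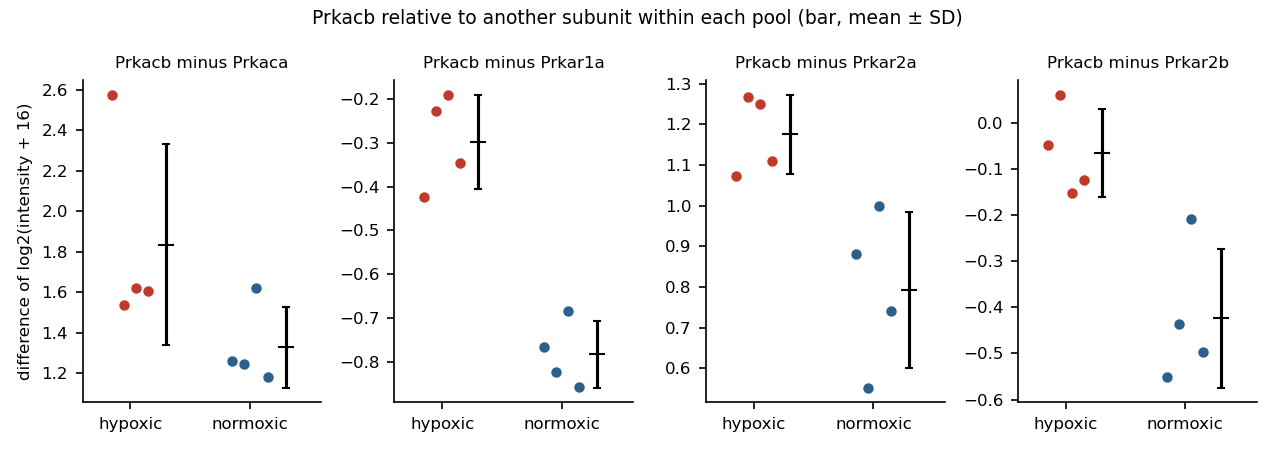
Prkacb minus another PKA subunit gene, as a difference of log2(intensity + 16) within each of the 4 hypoxic (red) and 4 normoxic (blue) pools, with the mean and SD; axes do not start at 0. Hypoxic pools lie above all normoxic pools for Prkar1a, Prkar2a and Prkar2b, and overlap them for Prkaca.

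Adenylyl cyclases make the cyclic AMP that PKA reads. Adcy3, a form that calcium and calmodulin can stimulate and that is best known from olfactory neurons, had 1 probe set, 1387128_at. It measured 201.0, 196.5, 199.5 and 165.5 in hypoxic pools, against 274.1, 199.8, 294.4 and 203.4 in normoxic pools. Normoxic pools 1 and 3 stood above the other 6 pools, normoxic pool 2 lay within the hypoxic range, and normoxic pool 4 lay just above it. The means were 191 ± 16.9 in hypoxic and 243 ± 48.5 in normoxic pools (SD, n = 4 pools each). The log2 difference was -0.31 (95% interval -0.65 to 0.03) and did not pass (limma, adjusted p = 0.623).

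Adcy6, a form that calcium inhibits, had a probe set 1367644_at at 915.2, 880.9, 1202.1 and 1034.7 in hypoxic pools, against 1167.6, 906.8, 866.0 and 856.5 in normoxic pools. The 2 groups overlapped, with hypoxic pool 3 and normoxic pool 1 as the highest of their groups. The log2 difference was 0.09 (95% interval -0.20 to 0.37; limma, adjusted p = 0.898). Its dimmer probe set, 1386876_at, averaged 262 ± 96.6 in hypoxic and 281 ± 61.8 in normoxic pools, a log2 difference of -0.13, which was -0.35 without hypoxic pool 3 and -0.02 without hypoxic pool 1. The probe sets of Adcy6 did not differ from each other beyond the spread between pools (exact permutation test, p = 0.457).

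Sik1 encodes salt-inducible kinase 1, which holds the CREB coactivators of the CRTC family out of the nucleus and is itself a target of PKA. Its bright probe set, 1368596_at, measured 317.7, 397.7, 233.2 and 371.7 in hypoxic pools, against 227.7, 263.4, 255.5 and 289.1 in normoxic pools. Hypoxic pools 1, 2 and 4 lay above all normoxic pools, and hypoxic pool 3 lay among them. The means were 330 ± 72.7 in hypoxic and 259 ± 25.3 in normoxic pools (SD, n = 4 pools each). The log2 difference was 0.31 (95% interval -0.04 to 0.66; limma, adjusted p = 0.638), and it stayed between 0.22 and 0.46 when single pools were left out. The second probe set, 1368597_at, lay above background in 3 of 8 pools and was not tested.

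Creb1 encodes the transcription factor CREB, which PKA phosphorylates and which binds the cyclic AMP response element. Its brightest probe set, 1375655_at, measured 426.9, 485.5, 435.9 and 348.4 in hypoxic pools, against 472.7, 494.4, 469.1 and 403.9 in normoxic pools. The ranges overlapped, with hypoxic pool 4 the lowest of all, and the log2 difference was -0.12 (95% interval -0.39 to 0.15; limma, adjusted p = 0.849). It was -0.03 without hypoxic pool 4 and -0.18 without hypoxic pool 2. The other probe sets of Creb1 lay below the filter. Of these, 1369708_a_at lay above background in 6 of 8 pools and 1371291_at in 0 of 8.

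Crem encodes activators and repressors that share the CREB binding site, among them ICER, a short repressor made from a promoter inside the gene. Its brightest probe set, 1369738_s_at, whose suffix marks probes that may match more than 1 transcript, measured 321.2, 521.3, 446.3 and 309.6 in hypoxic pools, against 195.8, 387.4, 744.0 and 498.4 in normoxic pools. The normoxic pools spanned both the lowest and the highest value. The means were 400 ± 102 in hypoxic and 456 ± 229 in normoxic pools (SD, n = 4 pools each), and the log2 difference was -0.07 (95% interval -0.76 to 0.62; limma, adjusted p = 0.971). At 1369737_at the log2 difference was -0.46 (95% interval -1.45 to 0.53; limma, adjusted p = 0.836), and normoxic pools 3 and 4, at 270.5 and 197.6, stood above the other 6 pools. Without normoxic pool 3 it was -0.10, and without normoxic pool 1 it was -0.80. At 1387714_at, below the filter, Crem averaged 83.3 ± 21.3 in hypoxic and 109 ± 23.7 in normoxic pools.

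Since CREB and Crem bind the cyclic AMP response element, windows around the start sites of these genes were read for it, from 250 bases before to 50 bases after each start in RefSeq's annotation of rat assembly GRCr8. Windows were found for 7 of the 10 genes, 10 windows in all. The motifs were TGACGTCA, which reads the same on both strands, and its core TGACG, searched on both strands as TGACG and CGTCA. A full motif therefore holds a core on each strand. Of the windows of Crem, 2 are shown because they are the ones with a full motif, that of Sik1 because it is the other feedback gene, and those of Prkacb and Prkaca because their probe sets were set against each other. The windows of Prkar1a and Prkar2b, whose probe sets were also set against that of Prkacb, hold no motif and are not shown. Capitals mark the motifs.
Crem, start 2, chr17:58984547-58984846, plus strand: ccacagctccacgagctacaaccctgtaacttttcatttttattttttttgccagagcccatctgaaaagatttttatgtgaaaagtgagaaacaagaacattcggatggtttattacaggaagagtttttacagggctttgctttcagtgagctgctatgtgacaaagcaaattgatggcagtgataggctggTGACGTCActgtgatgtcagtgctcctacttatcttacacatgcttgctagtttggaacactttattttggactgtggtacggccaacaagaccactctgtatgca
Crem, start 3, chr17:58985240-58985539, plus strand: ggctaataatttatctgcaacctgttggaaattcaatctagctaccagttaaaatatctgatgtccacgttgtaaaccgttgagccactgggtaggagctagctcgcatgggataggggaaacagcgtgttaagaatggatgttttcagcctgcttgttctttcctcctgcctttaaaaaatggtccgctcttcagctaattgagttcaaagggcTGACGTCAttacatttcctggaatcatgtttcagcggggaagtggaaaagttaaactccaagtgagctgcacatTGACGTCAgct
Sik1, chr20:9958597-9958896, minus strand: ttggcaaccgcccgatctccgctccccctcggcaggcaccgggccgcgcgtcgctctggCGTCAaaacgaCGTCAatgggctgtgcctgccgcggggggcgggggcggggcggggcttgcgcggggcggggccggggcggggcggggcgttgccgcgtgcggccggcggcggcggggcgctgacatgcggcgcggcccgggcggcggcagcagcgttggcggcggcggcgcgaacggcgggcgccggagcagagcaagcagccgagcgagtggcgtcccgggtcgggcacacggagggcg
Prkacb, chr2:238386266-238386565, minus strand: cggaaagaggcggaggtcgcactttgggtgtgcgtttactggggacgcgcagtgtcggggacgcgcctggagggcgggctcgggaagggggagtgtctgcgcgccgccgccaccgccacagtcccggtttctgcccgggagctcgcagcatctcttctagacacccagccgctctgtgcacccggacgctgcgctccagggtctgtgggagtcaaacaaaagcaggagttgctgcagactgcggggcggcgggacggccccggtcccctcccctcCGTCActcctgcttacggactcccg
Prkaca, chr19:41083140-41083439, minus strand: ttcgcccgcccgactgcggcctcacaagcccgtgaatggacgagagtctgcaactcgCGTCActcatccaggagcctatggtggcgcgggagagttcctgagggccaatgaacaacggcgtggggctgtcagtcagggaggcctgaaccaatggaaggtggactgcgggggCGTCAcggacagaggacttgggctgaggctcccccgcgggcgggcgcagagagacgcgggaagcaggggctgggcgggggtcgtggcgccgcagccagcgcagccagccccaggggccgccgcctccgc

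The full motif stood in 2 of the 10 windows, both of Crem, and in 1.83% of all 33469 windows of the same length. In the window of start 2 of Crem it began at base -56 from the start, and in that of start 3 at bases -35 and 40. The core stood in 7 of the 10 windows, the 2 with a full motif among them, against 21.2% of all windows. These shares are not like for like. The core holds a CG, and all windows were not matched to the 10 in GC content, which ran from 41.3% to 81.3% in the 10. Creb1 has 2 of the 10 windows and Crem 3. Sik1 held the core at bases -191 and -180, Prkaca at -193 and -79, and Prkacb only at base 26, inside the transcript. Creb1 held 3 cores around 1 of its 2 starts and 0 around the other. The windows of Prkar1a and Prkar2b held 0, which says only that these letters are not there. A match of letters is a description and not a measured binding site, and no binding was measured in these samples.

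Several dim probe sets of these genes shared a pattern over the pools that did not follow the groups. In the dim probe set of Prkacb, in 1371059_at of Prkar2a and in 1386876_at of Adcy6, hypoxic pool 3 was the highest hypoxic pool and normoxic pool 3 the highest normoxic pool. The same held at 1375620_at of Prkar2a, 1369708_a_at of Creb1 and 1387714_at of Crem. It was not limited to dim probe sets. At the bright 1386905_at of Prkar1a, hypoxic pool 3 at 3175.9 and normoxic pool 3 at 3294.7 were the highest of their groups. At 1371133_a_at of Prkar2b they were also the highest, at 4160.3 and 3689.3, though its normoxic pools were almost equal. Not every dim probe set did this. At 1368597_at of Sik1 hypoxic pool 3 was the lowest hypoxic pool, at 12.6, and at 1369737_at of Crem hypoxic pool 2 was the highest, at 149.5. The beta-actin 5' over 3' ratio was 0.249, 0.491, 0.713 and 0.528 in hypoxic pools 1 to 4, against 0.413, 0.598, 0.744 and 0.674 in normoxic pools 1 to 4, so it was also highest in pool 3 of each group. The Gapdh ratio was not: in hypoxic pools 1 to 4 it was 0.6182, 0.6016, 0.5562 and 0.6585, lowest in pool 3. In normoxic pools 1 to 4 it was 0.6389, 0.5866, 0.7314 and 0.7011, highest in pool 3. Between groups the beta-actin ratio did not differ beyond its spread (0.495 ± 0.190 in hypoxic and 0.607 ± 0.143 in normoxic pools, SD, n = 4 pools each, exact permutation p = 0.4, two-sided). With this ratio as a covariate in limma, 5 of the 17 tested probe sets turned in sign, namely Prkaca, the dim ones of Prkacb and Adcy6, 1371059_at of Prkar2a and 1369738_s_at of Crem. The bright probe set of Prkacb had a log2 difference of 0.49 in that fit (limma, adjusted p = 0.0772), and of 0.50 with the Gapdh 5' over 3' ratio instead (adjusted p = 0.211). The part of RNA integrity in the pattern shared by these dim and bright probe sets was not tested further.

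**Figure D4:**
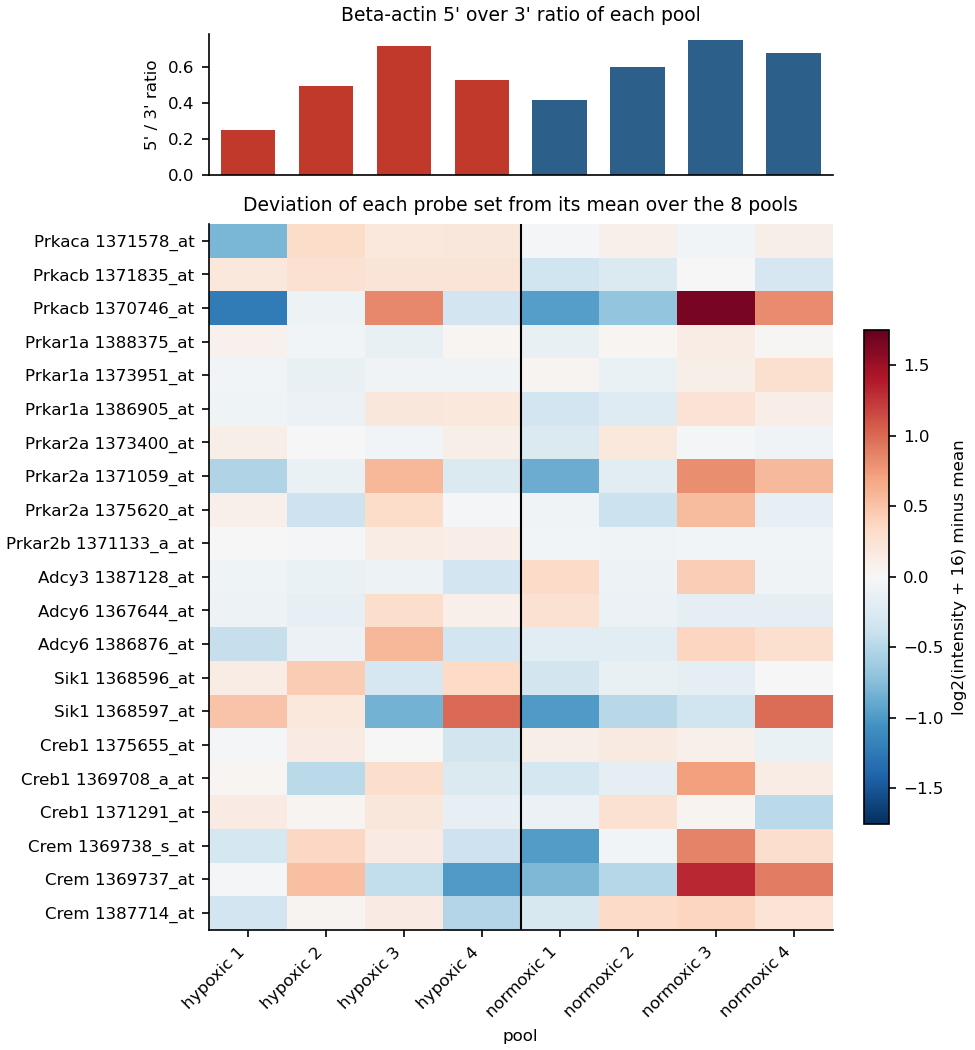
Top, beta-actin 5' over 3' ratio of each pool (no unit, axis from 0), hypoxic in red and normoxic in blue; bottom, log2(intensity + 16) of each of the 21 probe sets minus its own mean over the 8 pools, by colour. The bright Prkacb probe set is red in all hypoxic pools, while its dim probe set is darkest red in normoxic pool 3, where the ratio is highest, at 0.744.

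The remaining genes of the pathway were described at their brightest tested probe set. Of 93 further genes in 7 lists, 64 could be tested. In limma 0 of them passed an adjusted p of 0.05, and 6 had an unadjusted p below 0.05, which is 9.38% of them where all tested probe sets gave 8.64%. Of these 6, 1 was higher and 5 were lower in hypoxic pools, where all tested probe sets gave 4.16% higher and 4.48% lower. The median log2 difference of the 64 was -0.05.

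Upstream of the cyclases, Mc2r and Mrap, the ACTH receptor gene and that of its accessory protein, had no probe set of their own and are not analysed here. Gnas, the stimulatory G protein alpha subunit, averaged 18361 ± 2802 in hypoxic and 18124 ± 2495 in normoxic pools (SD, n = 4 pools each) at its brightest probe set, a log2 difference of 0.02 (95% interval -0.28 to 0.31). Among 15 tested receptor and G protein genes, 6 were higher and 9 lower, with a median of -0.08. The gene with the lowest p there was Rgs2, a protein that shortens G protein signals and a gene that cyclic AMP can induce. It measured 859.1, 755.2, 734.3 and 547.0 in hypoxic pools, against 1179.3, 906.2, 970.1 and 1270.1 in normoxic pools, with no overlap. Its log2 difference was -0.57 (95% interval -0.90 to -0.25; limma, adjusted p = 0.234). Its dimmer probe set gave -0.13 with overlapping groups.

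Among the other PKA genes, 3 of 4 tested were higher. Prkar1b, the type I beta regulatory subunit gene, which is best known from neurons, measured 347.1, 390.0, 329.6 and 396.1 in hypoxic pools, against 287.5, 318.7, 312.9 and 258.3 in normoxic pools. Like Prkacb and Prkar2b it showed no overlap, and its log2 difference was 0.30 (95% interval 0.04 to 0.56; limma, adjusted p = 0.503). The inhibitor genes Pkia and Pkig, whose proteins block the free catalytic subunit, had log2 differences of 0.01 and -0.12. Of 5 tested genes of other cyclases and cyclase-associated proteins, 2 were higher and 3 lower, and of 10 anchoring protein genes 3 were higher and 7 lower. None of these had an unadjusted p below 0.05 in limma other than Prkar1b.

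The 6 tested genes of the EPAC arm, through which cyclic AMP acts without PKA, were all lower in hypoxic pools. Of all tested probe sets, 45.2% had a log2 difference above 0. In limma 2 of the 6 had an unadjusted p below 0.05, where 8.64% of all tested probe sets did. The log2 differences of the 6 ran from -0.37 to -0.09 with a median of -0.15. Rap2a, a small GTPase related to Rap1, had the largest of these, with 194 ± 22.9 in hypoxic and 256 ± 27.8 in normoxic pools (SD, n = 4 pools each; limma, adjusted p = 0.438). Rap1b, a small GTPase that EPAC proteins activate, had a log2 difference of -0.20 (limma, adjusted p = 0.561). Of 15 CREB relatives, coactivators and further SIK pathway genes, 8 were higher and 7 lower with a median of 0.03, and 0 had an unadjusted p below 0.05 in limma.

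Genes that CREB is known to activate gave 3 higher and 7 lower of 10 tested, with a median of -0.10. In limma 3 of the 10 had an unadjusted p below 0.05, all lower in hypoxic pools and Rgs2 among them, where 8.64% of all tested probe sets had one and 4.48% had one and were lower. The sum of the leukocyte markers, 4 of 7 of which were lower, was also lower in these pools, as given above, and their part in these differences was not tested. Junb, an AP-1 transcription factor gene, measured 378.6, 252.3, 249.3 and 359.3 in hypoxic pools, against 388.7, 477.2, 423.0 and 541.4 in normoxic pools, with no overlap and a log2 difference of -0.55 (limma, adjusted p = 0.306). Inha, the inhibin alpha subunit gene of the cortex, averaged 2109 ± 447 in hypoxic and 2859 ± 476 in normoxic pools (SD, n = 4 pools each), a log2 difference of -0.44 (limma, adjusted p = 0.423). The orphan receptor gene Nr4a1, which ACTH induces in the cortex, averaged 899 ± 295 in hypoxic and 881 ± 204 in normoxic pools, a log2 difference of 0.01. Star, whose protein moves cholesterol into mitochondria, had a log2 difference of -0.01.

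**Figure D5:**
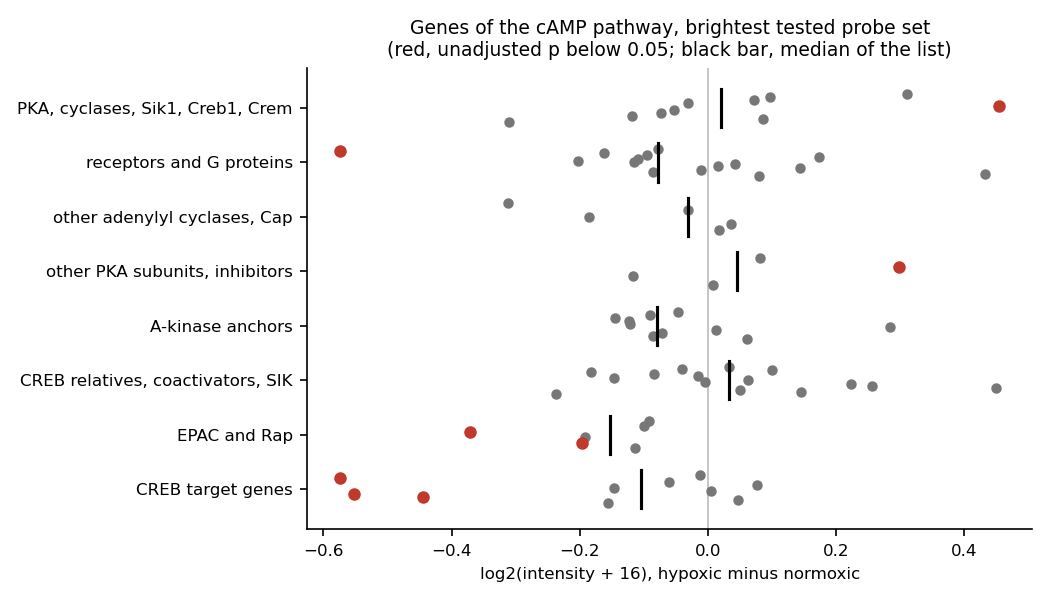
Log2 difference, hypoxic minus normoxic, of log2(intensity + 16) for each tested gene of 8 pathway lists at its brightest probe set, with the list's median as a bar and genes with an unadjusted p below 0.05 in red. Prkacb at 0.45 is the only red point of the top list, and the 3 red points of the CREB target list lie between -0.57 and -0.44.

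To describe which transcripts varied like Prkacb among the pools of a group, its log2 values at the bright probe set, as deviations from the group means, were set against those of 9294 other tested probe sets with 1 gene symbol. Over the 8 pools the highest Pearson r was 0.986 for Wdr12, a ribosome assembly factor gene, followed by 0.969 for Mtch2, a gene of the outer mitochondrial membrane, and 0.962 for Vps33b, a vesicle trafficking gene. Normoxic pools weigh most in these values of r. The SD of Prkacb was 88.9 in hypoxic and 303 in normoxic pools, where pool 3 was the highest at 3189.3. These genes are the top 3 of many, given as a description. Over the pool values themselves, with the group means left in, r was -0.41, 0.39 and 0.35. Their own log2 differences between hypoxic and normoxic pools were -0.27, 0.0032 and -0.0054.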

How the data were processed

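The deposited table held intensity values of 15923 probe sets on a linear scale, which the authors had scaled to a common mean, as the values show: leaving out 2% of probe sets at each end, the mean was 500.1 on every array. No source used here names the summarising software. Such scaling hides any change shared by most transcripts. After 57 control probe sets were left out, 12783 had 1 gene symbol in the platform's annotation, 312 had several and 2771 had none there, and only those with 1 symbol were named. The scale of the fit was log2(intensity + 16), with a lower limit of 1 on intensities, which understates differences of dim probe sets. Medians of the arrays lay within 0.117 log2 of each other, under a limit of 0.2, so no further normalization was applied. Probe sets below the 30th percentile of the mean were left out, and 11106 were tested with limma 3.58.1 in R 4.3.3 (lmFit, eBayes with a variance trend), two-sided, with Benjamini-Hochberg adjustment. Single differences were tested by exact permutation over 70 splits. Means and SDs are of intensities. Intervals are 95% intervals of limma. The fit was run on simulated data with independent noise as a check of the code. That check does not measure its power for the differences reported here. Tables and plots used Python 3.11.15, pandas 2.3.3 and matplotlib 3.10.9.

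The genes and lists were chosen with earlier results of these data known. All 10 genes are named at every probe set, and from the other lists Mc2r, Mrap, Gnas and up to 4 genes a list with an unadjusted p below 0.05; Pkia, Pkig, Nr4a1 and Star were added after their values were seen. For Prkacb the 3 transcripts with the highest r are named. Alternatives were offsets of 1 and 64, no filter and one at the 50th percentile, quantile normalization, no variance trend, the replicate number as a block, RNA integrity ratios as covariates, and leaving out each pool. The number of arrays limits the precision.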

Additional observations from a re-analysis of the deposited data

Results flagged for a closer look

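Each of the 42 sets of 4 pools behind the 21 probe sets was checked for a pool far from the other 3 of its group. There were 4 such pools. Chance gives about 1 in 20 sets where sets are independent. These 42 come from the same arrays, so the count is only a description. Prkaca in hypoxic pool 1 measured 599.9, and without that pool its log2 difference was 0.21 in place of -0.05. Prkar1a at 1373951_at in hypoxic pool 2 measured 2947.3, and its log2 difference was -0.13 without it and -0.15 with it. Adcy3 in hypoxic pool 4 measured 165.5, and its log2 difference was -0.25 without it and -0.31 with it. Adcy6 at 1367644_at in normoxic pool 1 measured 1167.6, and its log2 difference was 0.19 without it and 0.09 with it.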

How the results depend on the processing

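The number of the 10 genes' probe sets past an adjusted p of 0.05 was 0 in all 17 alternatives. The count over all probe sets, 20, was 0 with no filter (limma, lowest adjusted p = 0.0575), 0 with no variance trend (0.0770), 0 with the Gapdh ratio (0.0981) and 37 with the beta-actin ratio. Leaving out single pools gave 0 to 31: hypoxic pool 1 gave 31, hypoxic pool 4 gave 2, normoxic pool 4 gave 1 and each of the other 5 gave 0. For the bright Prkacb probe set the log2 difference stayed between 0.41 and 0.53 in every alternative. In the fit with the replicate number as a block the count over all probe sets was 18 and Prkacb had an adjusted p of 0.161 (limma). Same-numbered pools are not shown to be paired: their deviations correlated at 0.323, 0.003, 0.186 and -0.043. With the beta-actin ratio the log2 differences that turned in sign were 0.15 (Prkaca), 0.18 (Prkacb 1370746_at), 0.19 (Prkar2a 1371059_at), 0.0714 (Adcy6 1386876_at) and 0.18 (Crem 1369738_s_at). With the Gapdh ratio they were 0.0045 (Prkacb 1370746_at), 0.0291 (Prkar1a 1388375_at), 0.0146 (Prkar2a 1371059_at) and 0.11 (Crem 1369738_s_at). When single pools were left out, 7 turned in sign, with ranges of -0.17 to 0.21 for Prkaca, -0.80 to 0.0769 for Prkacb 1370746_at, -0.0778 to 0.009 for Prkar1a 1388375_at, -0.47 to 0.0852 for Prkar2a 1371059_at, -0.11 to 0.20 for Prkar2a 1375620_at, -0.0002 to 0.19 for Adcy6 1367644_at and -0.41 to 0.20 for Crem 1369738_s_at. Of the 15 differences between probe sets of 1 gene, 6 turned in sign when single pools were left out, and that of Sik1 also turned with an offset of 64, to 0.0618. Among single probe sets whose log2 difference kept its sign, Prkar1a ran from -0.22 to -0.09 at 1373951_at and from 0.01 to 0.21 at 1386905_at, Prkar2a from 0.0018 to 0.15 at 1373400_at, Adcy3 from -0.39 to -0.22 and Prkar2b from 0.07 to 0.12. The causes were not tested. Signals near the background of 46.7, as at Sik1 1368597_at and Creb1 1371291_at, allow little to be said.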
